A study of Mus musculus with 3 samples.

Results

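The bulk-electroporated library of this mouse neural progenitor study held a tail of barcodes with far more RNA than the rest, and these very RNA-rich cells were set against cells of ordinary depth from the same library. A barcode, the tag that marks 1 droplet, was kept when it had at least 500 genes and at most 20% of its unique molecular identifiers (UMIs, counted RNA molecules) from the mitochondrial genome. RNA-rich cells had more than 25000 UMIs and ordinary cells 10000 to 15000 UMIs. The rule took 533 RNA-rich and 1888 ordinary cells among 6263 kept barcodes of the bulk library, and the whole series had 20041 kept barcodes. The cells were chosen by total UMIs, gene number and mitochondrial share, and these values are given only as a description.

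Neural progenitors, cells able to form neurons and glia, came from the brains of postnatal day 1 mice and grew as neurospheres in DMEM/F12 with N2 and B27 supplements, antibiotics with glutamine and 20 ng/mL human epidermal growth factor. They were plated at 50000 cells on poly-D-lysine, on dishes for bulk treatment and on devices for localized treatment, and kept for 16 h. One library then received bulk electroporation in a Nucleofector, another localized electroporation (400 pulses of 20 V), and the last served as the control. Trypsin freed the cells 4 h after treatment, and droplet sequencing of transcript 3' ends began from 10000 cells of each condition. The labels name no strain, sex, number of mice or delivered cargo. With 1 library per condition there are no replicates and no tests. Intervals of UMI shares and ratios cover counting error only. Intervals of shares of cells and of medians over cells cover only the draw of cells within 1 library.

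Bulk electroporation exposes the whole culture to an electric field that opens the cell membranes for a short time. A dividing cell gains RNA as it grows, and its replication genes, histones and mitosis genes peak in turn as it passes through the cell cycle. Interferon-response genes are switched on through transcription factors that bind promoter elements built from repeated GAAA letters, while the integrated stress response acts through ATF4 and p53 acts on genes of arrest and cell death.

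Interferon-response genes led the difference between RNA-rich and ordinary cells, so the promoter stretches of 4 of them are shown. They come from the 250 bases before the gene start in RefSeq (GRCm38.p6), written 5' to 3' on the gene's strand, and capitals mark each match to GAAANNGAAA, searched on both strands with overlapping matches allowed. The motif was in 9 of 22 list genes with a promoter (40.9%), against 3.46% of 27025 genes with windows of the same length. Isg15 held 3 matches that overlap at chr4:156200835-156200936 (minus strand), Ifit1 held 2 at chr19:34640745-34640853 (plus strand), and Rsad2 at chr12:26456523-26456612 and Cxcl10 at chr5:92349053-92349139 (both minus strand) held 1 each.
Isg15: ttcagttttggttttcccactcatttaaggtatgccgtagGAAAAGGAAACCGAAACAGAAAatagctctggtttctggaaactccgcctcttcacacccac
Ifit1: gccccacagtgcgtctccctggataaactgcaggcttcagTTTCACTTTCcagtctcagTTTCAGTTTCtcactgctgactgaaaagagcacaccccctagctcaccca
Rsad2: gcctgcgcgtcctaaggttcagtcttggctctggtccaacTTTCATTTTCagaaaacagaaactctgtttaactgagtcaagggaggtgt
Cxcl10: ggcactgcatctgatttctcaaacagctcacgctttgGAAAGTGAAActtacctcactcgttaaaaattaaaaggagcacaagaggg
Ifih1 and Oasl1 had no match in this window. A match is a description of the letters and not of binding.

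RNA-rich cells made up 8.51% of kept bulk barcodes (95% exact interval 7.83 to 9.23%) and held 25.4% of their UMIs. In the control library 68 of 6751 kept barcodes (1.01%) passed the same limit, and in the localized library 173 of 7027 (2.46%) did. UMIs per RNA-rich bulk cell ran from 25056 to 119733 with a median of 33430, and ordinary cells had a median of 12175. The limit cut through a continuous tail: 38 cells had 24000 to 25000 UMIs and 51 had 25000 to 26000 UMIs, with medians of 82.5 and 100 UMIs of G2 and mitosis genes, 6 and 7 UMIs of interferon-response genes and 3178.5 and 3217 genes after thinning. The 3 deposited matrices held 74429007 to 85743257 UMIs, 12 kept bulk barcodes were also kept in the control and 12 in the localized library, and 0 of these were RNA-rich in bulk.

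**Figure D1:**
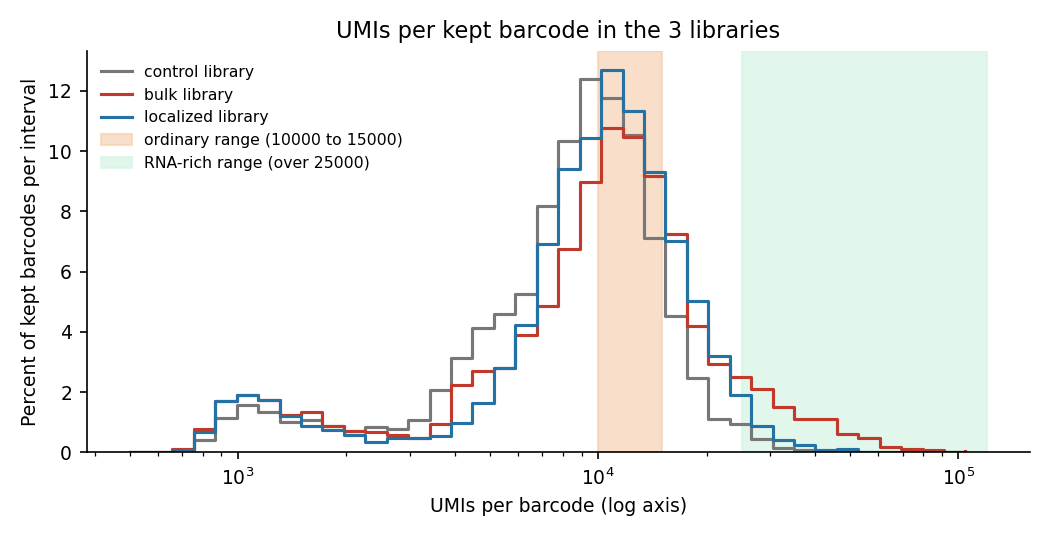
Share of kept barcodes (y axis, percent per interval) by UMIs per barcode (log x axis) in the control, bulk and localized libraries, with the ordinary and RNA-rich ranges shaded. The bulk curve stays above the other 2 over the RNA-rich range, which holds 8.51% of bulk, 1.01% of control and 2.46% of localized barcodes.

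The RNA-rich cells carried neural progenitor markers. Sox2, a transcription factor of neural stem cells, stood at 389 UMIs of this gene in 1000000 UMIs of all genes (CPM) in RNA-rich and 330 CPM in ordinary cells, Nes, the intermediate filament nestin, at 588 and 477 CPM, and Fabp7, a fatty acid binding protein of radial glia, at 3868 and 4647 CPM. All 533 RNA-rich and all 1888 ordinary cells had at least 3 UMIs of progenitor markers after thinning. These markers summed to 8185 CPM in RNA-rich and 8646 CPM in ordinary cells, so a limit of 3 UMIs does not tell cells apart. Markers of endothelial, mural and erythroid cells reached 5 CPM for no gene in either group, and those of microglia and ependyma for 1 gene each. Oligodendrocyte precursor markers summed to 600 CPM in RNA-rich and 751 CPM in ordinary cells, and astrocyte markers to 571 and 566 CPM. Neuron and neuroblast markers summed to 566 and 542 CPM. At least 3 of their UMIs were in 89.7% of RNA-rich and 80.2% of ordinary cells after thinning. Only 5 of these 14 markers reached 5 CPM in either group. After thinning, Sox11 was found in 93.2% of RNA-rich and 84.5% of ordinary cells, and Map2 in 74.5% and 81.1%. Tubb3 was found in 24.2% and 15.9%. The limit of 3 UMIs thus does not mark a cell as a neuron.

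More UMIs reveal more genes, so each cell was also thinned at random to 10000 UMIs. Before thinning, the median was 5894 genes per RNA-rich cell and 3398 per ordinary cell. At 10000 UMIs it was 3180 genes (95% interval 3162 to 3195 over cells, quartiles 3056 and 3302) against 3042 genes (3028 to 3054, quartiles 2910 and 3177). The quartile ranges overlapped, and the difference of medians was 138 genes. In the control library the thinned medians were 3192 and 2962.5 genes, and in the localized library 3253 and 3109 genes, so RNA-rich cells had the higher median in all 3 libraries.

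Most genes lay near the ratio of depths. The groups were chosen by total UMIs, so that centre was set by the rule and only the spread around it is described. The mean RNA-rich cell had 3.05 times the UMIs of the mean ordinary cell, and 5709 of the 5941 genes of at least 20 CPM in either group had 2 to 4.5 times the UMIs per cell. Only 25 genes had over 6 times, and 16 had under 1.5 times. In shares of UMIs, the log2 ratio of RNA-rich over ordinary cells (with 1 CPM added to both) had a median of 0.03 over these genes, 146 genes (2.46%) lay past 1.5-fold on the higher side and 48 (0.808%) on the lower side. At 2-fold, 21 were higher and 17 lower.

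**Figure D2:**
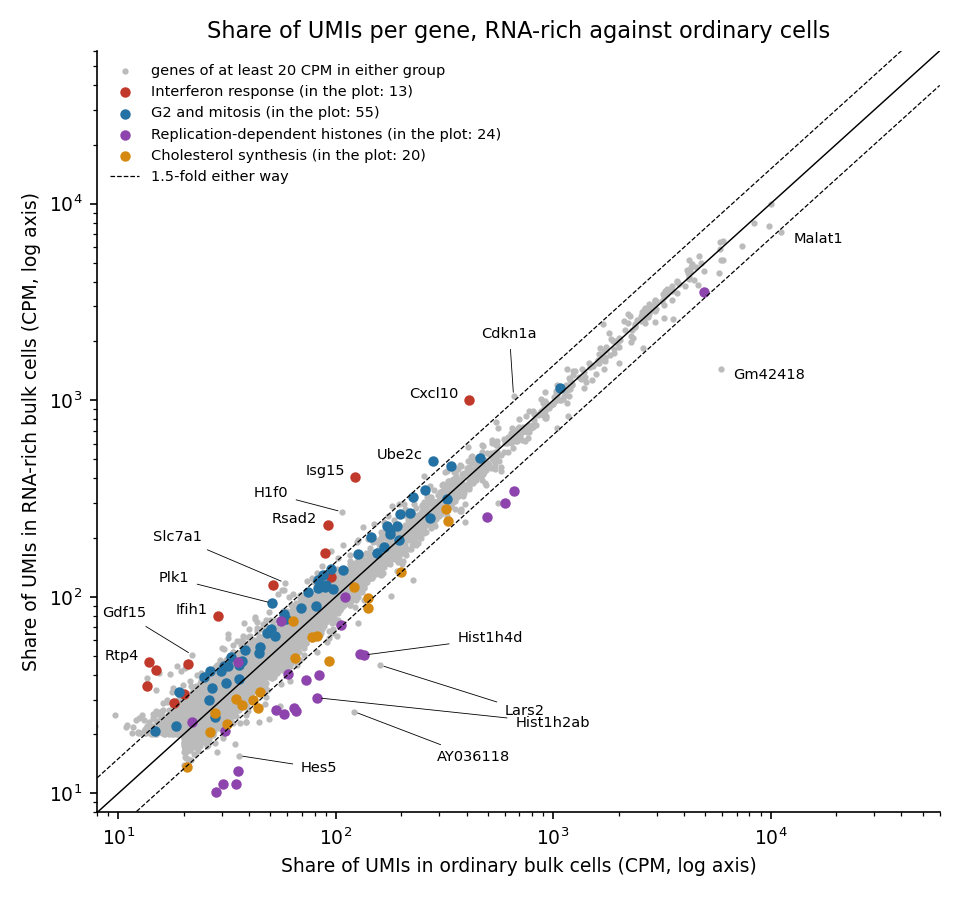
Share of UMIs per gene (CPM, both axes log) in ordinary cells (x) and RNA-rich cells (y) of the bulk library, for genes of at least 20 CPM in either group. Points lie close to the line of equal shares, with 146 genes above and 48 below the dashed 1.5-fold lines, where most interferon-response genes (red) lie above and most histone genes (purple) below.

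Interferon-response genes had the largest ratios of the lists described. Of 33 listed genes 30 were in the files, and all 30 had a ratio above 0, with a median of 1.06. At a minimum of 5 CPM in either group 24 were measured, 22 of them were at least 1.5-fold higher, and the median was 1.14. Among all 9784 genes at that minimum 3.18% were at least 1.5-fold higher, 0.93% at least 1.5-fold lower, 57.9% above 0 and the median was 0.04. As 8 of the 24 reached the minimum only through RNA-rich cells, the 16 that reached it in ordinary cells are also given: 15 were at least 1.5-fold higher, with a median of 1.29. The list summed to 2484 CPM in RNA-rich cells, 1045 CPM in ordinary cells and 969 CPM in the free RNA of the library, read from barcodes of 10 to 100 UMIs.

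Isg15 encodes a small protein that is attached to others after interferon. Its gene (ENSMUSG00000035692, GRCm38 chr4:156199424-156200818, minus strand) had 406 CPM in RNA-rich and 123 CPM in ordinary cells, a log2 ratio of 1.71 (95% interval 1.65 to 1.78). Per cell that was 15.2 and 1.51 UMIs, a 10.1-fold difference where the depth differed 3.05-fold. In the control library both groups had at most 3.05 CPM, and in the localized library at most 3.67 CPM. Both bulk groups thus stood far above both groups of the other libraries. After thinning, 61.4% of RNA-rich, 22.1% of ordinary and 0.736% of ordinary control cells had an Isg15 UMI.

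Cxcl10, a chemokine that draws T cells, was the most abundant list member. It had 997 CPM in RNA-rich and 410 CPM in ordinary cells, a log2 ratio of 1.28 (1.24 to 1.31). After thinning, 78.4% of RNA-rich cells (74.7 to 81.8%) and 41.9% of ordinary cells (39.7 to 44.2%) had at least 1 Cxcl10 UMI. Of ordinary control cells at the same depth 1.28% had one. Without thinning the bulk shares were 90.1% and 45.02%.

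Other members had ratios in the same direction. Rsad2, the antiviral enzyme viperin, had 231 and 91.7 CPM (log2 ratio 1.33), and Ifit1, which binds foreign RNA, 167 and 89.5 CPM (0.89, but 0.48 with RNA-rich cells of 25000 to 40000 UMIs). Of the RNA sensor Ifih1 there were 79.8 and 28.7 CPM (1.45), and of Oasl1, an inhibitor of Irf7 translation, 114 and 51.6 CPM (1.13). Usp18, which removes ISG15 from proteins and damps interferon signalling, had 13.0 and 2.76 CPM (1.90) and Rtp4 46.4 and 13.9 CPM (1.67). Of the transcription factors, Stat2 had a ratio of 1.05, Irf9 1.15 and Irf7 1.23, the last from 2.45 and 0.475 CPM. The smallest ratios of measured members were 0.21 for Ifi27 and 0.42 for Ifitm3. In the control and localized libraries 5 and 6 members reached the minimum, with list medians of 0.01 and -0.02.

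Interferon transcripts were found in a larger share of RNA-rich cells. At 10000 UMIs the median was 10 list UMIs per RNA-rich cell (quartiles 3 and 24) and 2 per ordinary cell (1 and 6). At least 5 such UMIs were found in 68.1% of RNA-rich and 31.3% of ordinary cells, against 6.5% of ordinary control cells. The 10% of cells with the most held 49.3% of the list's UMIs in RNA-rich and 68.6% in ordinary cells. The groups overlapped, since the highest ordinary cell had 305 list UMIs and the highest RNA-rich cell 279.

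Integrated stress response genes were higher in RNA-rich cells. All 25 measured of 26 had ratios above 0, 14 were at least 1.5-fold higher and none was lower, with a median of 0.64. Of these, 24 reached 5 CPM in ordinary cells, with 13 at least 1.5-fold higher and a median of 0.63. Of all genes at the same minimum of 5 CPM, 57.9% were above 0 and 3.18% at least 1.5-fold higher. The range was from 0.04 to 1.21 and the sum 2860 against 1993 CPM. Nupr1, a stress-induced chromatin protein, had 44.3 and 18.6 CPM (log2 ratio 1.21), Sesn2, which restrains mTORC1 growth signalling, 73.9 and 37.7 CPM (0.95), Slc7a5, a transporter of large neutral amino acids, 109 and 56.9 CPM (0.92), and Shmt2, of mitochondrial serine metabolism, 103 and 54.5 CPM (0.91). The cationic amino acid transporter Slc7a1, outside the list, had 118 and 58.5 CPM (1.00). The list median was 0.23 in the control and 0.05 in the localized library. The list's sums in the control library, 3779 and 3307 CPM, were above those of both bulk groups. With RNA-rich cells of 25000 to 40000 UMIs the bulk median was 0.52, and with those of 25000 to 30000 UMIs 0.40. Among bulk cells with fewer than 3 oligodendrocyte lineage UMIs it was 0.30, below the G2 and mitosis median of 0.44 in the same cells.

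Targets of p53 had a median ratio of 0.30. Of 23 measured genes 7 were at least 1.5-fold higher, against 3.18% of all genes, and none lower. Cdkn1a, the cell cycle inhibitor p21, reached 1046 CPM in RNA-rich and 658 CPM in ordinary cells (log2 ratio 0.67, interval 0.64 to 0.70). Gdf15, a secreted stress factor, had 50.7 and 21.8 CPM (1.18), and the death-promoting Bbc3 and Pmaip1 had ratios of 0.80 and 0.93. In the control library Cdkn1a had 592 and 612 CPM and in the localized library 413 and 419 CPM, and the list medians there were -0.01 and -0.03. The 16 measured genes of intrinsic apoptosis had a median of 0.18, and the 2 at least 1.5-fold higher were again Bbc3 and Pmaip1. The 15 that reached 5 CPM in ordinary cells had a median of 0.13.

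**Figure D3:**
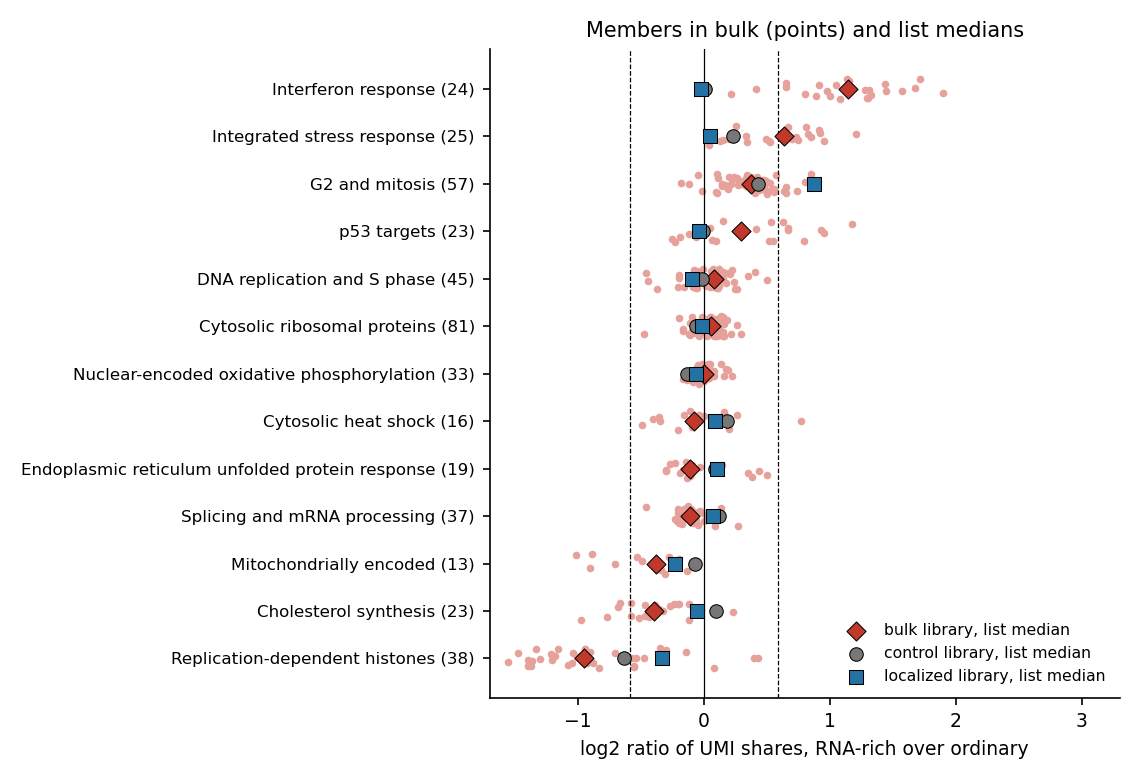
Log2 ratio of UMI shares, RNA-rich over ordinary cells (x axis), for the members of 13 gene lists in the bulk library (points; number measured in brackets) and the list medians in the bulk, control and localized libraries (diamonds, circles, squares); dashed lines mark 1.5-fold. In bulk the interferon median is 1.14 and the histone median -0.95, while the G2 and mitosis median is above 0 in all 3 libraries, at 0.37, 0.43 and 0.87.

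Genes of G2 and mitosis had higher shares in RNA-rich cells. Of 57 genes, all measured, 53 had ratios above 0, against 57.9% of all genes. At least 1.5-fold higher were 6, against 3.18% of all genes. The list median was 0.37 and the summed ratio 1.23. Plk1, the kinase that drives entry into mitosis, had 92.8 and 51.1 CPM (log2 ratio 0.85, 0.74 to 0.95), and Ube2c, which helps destroy cyclins at mitotic exit, 492 and 281 CPM (0.81, 0.76 to 0.85). Gtse1 had a ratio of 0.74, Cdc25c, the phosphatase that activates CDK1, 0.66, Anln, of the contractile ring, 0.65, and Cdca2 0.63 (0.57 at 25000 to 40000 UMIs). The proliferation marker Mki67 had 265 and 198 CPM (0.42), Top2a, which untangles DNA, 348 and 259 CPM (0.43), Ccnb1, cyclin B1, 138 and 95.3 CPM (0.53) and Cdk1 228 and 172 CPM (0.40). TTTGAA, part of an element found in many late-cycle promoters, was in the 250 bases before the start of 21 of 50 list genes (42%), against 18.3% of all genes. The 4 genes below 0 were Lbr (-0.18), Anp32e (-0.12), Cbx5 (-0.04) and Tmpo (-0.01).

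In the other libraries the median of this list was also above 0. It was 0.43 in control, with 56 of 57 genes above 0 against 65% of all genes and 11 at least 1.5-fold higher against 5.51%. In the localized library it was 0.87, with 57 of 57 above 0 against 61.9% and 45 at least 1.5-fold higher against 3.16%. Plk1 had a ratio of 0.61 in control and 1.40 in localized cells. The difference between libraries was not tested.

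S phase genes were near the background. Of 45 genes of DNA replication and S phase 29 had ratios above 0, against 57.9% of all genes. None was past 1.5-fold either way, and the median was 0.08. Mcm5 and Mcm2, subunits of the replicative helicase, had ratios of 0.50 and 0.41. Pcna, the replication clamp, had 221 and 212 CPM (0.06), and Ccne2, cyclin E2 of S phase entry, 15.02 and 21.02 CPM (-0.46). The direction of this list depended on the ordinary range: with ordinary cells of 12000 to 15000 UMIs its median was -0.064.

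Among 32 cyclins, CDKs and their inhibitors the median was 0.09, and the 2 genes at least 1.5-fold higher were Cdkn1a and Cdc25c. Of all genes 3.18% were at least 1.5-fold higher. D-type cyclins, which carry growth factor signals, were level, with Ccnd1 at 1007 and 1037 CPM (-0.04) and Ccnd2 at 634 and 685 CPM (-0.11). Mean Cdkn1a UMIs after thinning were 10.3 in RNA-rich cells at or below the ordinary G2 and mitosis median and 10.4 in those above it, against 6.498 and 6.511 in ordinary cells.

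Counted per cell after thinning, G2 and mitosis genes had a median of 84 UMIs in RNA-rich cells (quartiles 46 and 124) and 52 in ordinary cells (20 and 104). Replication and S phase genes had 28 UMIs (19 and 40) and 24 (8 and 44.2). The groups differed at the low end more than at the high end. At or below the ordinary median of 52 G2 and mitosis UMIs lay 30.02% of RNA-rich cells (26.2 to 34.1%) and 50.5% of ordinary cells. Above 161 UMIs, the 90th percentile of ordinary cells, lay 8.07% (5.90 to 10.7%) and 9.96% (8.64 to 11.4%), with 8 RNA-rich and 15 ordinary cells within 2 UMIs of that limit. For S phase genes the ordinary 90th percentile was 57 UMIs, and 4.13% of RNA-rich cells (2.60 to 6.18%) and 9.64% of ordinary cells (8.35 to 11.1%) lay above it.

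Replication-dependent histones, whose messages are made in S phase and mostly lack poly(A) tails, were the list with the lowest ratios. Of 38 measured of 63 listed 35 were below 0 and 27 at least 1.5-fold lower, against 0.93% of all genes. The median was -0.95 and the summed share 5307 against 8205 CPM. Hist1h4d had 50.5 and 135 CPM (log2 ratio -1.39), Hist1h2ab 30.6 and 82.4 CPM (-1.40) and Hist1h1e 256 and 496 CPM (-0.95). Many histone genes are near-identical copies, so the value of a single gene is uncertain. The list medians were -0.63 in control, where 23 of 41 genes were at least 1.5-fold lower against 1.86% of all genes, and -0.33 in localized cells, with 6 of 38 against 0.455%. H1f0, a linker histone made outside S phase and not on the list, went the other way with 270 and 107 CPM (1.33).

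For histones the median cell and the mean cell differed in direction. After thinning, the mean was 56.3 UMIs per RNA-rich and 80.5 per ordinary cell, while the median was 42 and 19. The quartiles were 8 and 159 UMIs in ordinary cells, 19 and 80 in RNA-rich cells, and 23.2 and 57 in cells above 40000 UMIs. The 10th and 90th percentiles were 8.2 and 127 in RNA-rich and 4 and 232 in ordinary cells, so the RNA-rich range lay inside the ordinary one. For G2 and mitosis genes these percentiles were 27 and 153 UMIs in RNA-rich and 14 and 161 in ordinary cells.

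**Figure D4:**
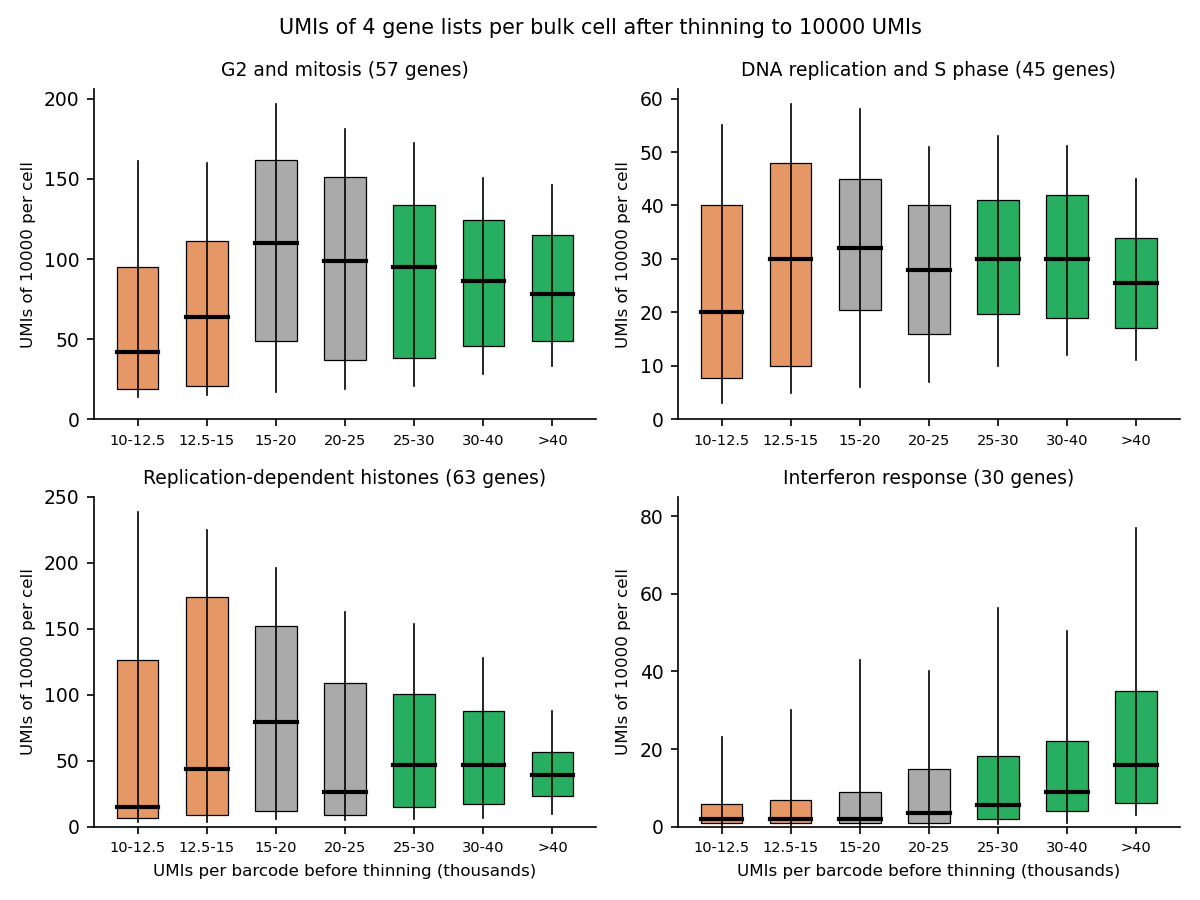
UMIs of 4 gene lists per bulk cell after thinning to 10000 UMIs (y axis) by depth range before thinning (x axis, kilo-UMIs; ordinary orange, RNA-rich green). Thick lines are medians, boxes the quartiles and thin lines the 10th to 90th percentiles of cells: the histone box is narrowest above 40000 UMIs, from 23.2 to 57, while interferon medians go from 2 to 16.

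The part in these values of droplets with more than 1 cell was not tested. The doublet caller Scrublet marked 0 of 533 RNA-rich cells and 2 of 6263 kept barcodes (0.0319%), so few that it has not worked here. Its score had a median of 0.121 in RNA-rich and 0.0735 in ordinary cells. At least 3 UMIs each of oligodendrocyte precursor and astrocyte markers were found in 65.3% of RNA-rich cells (61.1 to 69.3%) and 53.8% of ordinary cells (51.5 to 56.0%). At least 3 precursor marker UMIs alone were in 83.3% and 83.4% of cells, and 3 astrocyte marker UMIs in 77.9% and 65.04%. With the highest 10% of scores of the library left out, 353 of 533 RNA-rich and 1715 of 1888 ordinary cells were left. The interferon median was then 1.33 and the G2 and mitosis median 0.42. Because the caller has not worked here and the markers are widespread, these values do not show the part of doublets.

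Interferon UMIs were fewer in cells with the most G2 and mitosis UMIs. RNA-rich cells at or below the ordinary median of G2 and mitosis UMIs had a mean of 25.9 interferon UMIs and those above it 21.95, and for ordinary cells the means were 11.8 and 8.78. Above the ordinary 90th percentile of G2 and mitosis UMIs, 43 RNA-rich cells had a mean of 8.60 and 188 ordinary cells a mean of 4.15. There 34.9% of RNA-rich and 12.8% of ordinary cells had at least 5 interferon UMIs, against 72.5% and 35.2% at or below the median. Median depth before thinning was 29205 UMIs in the RNA-rich cells above the 90th percentile and 33595 UMIs in those at or below the median. For ordinary cells it was 12257 and 11909 UMIs, and the part of depth was not tested. Among cells whose S phase and G2 and mitosis UMIs were together below the ordinary median, 207 RNA-rich and 944 ordinary, the interferon median ratio was 1.16. In these low-cycle cells the histone median was -0.14, against -0.95 over all cells, and Hist1h2ab had a ratio of 0.21. The G2 and mitosis median there was 1.39, a value shaped by the choice of cells on those genes.

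Transcripts of cholesterol synthesis had lower shares. Of 23 genes 22 were below 0 and 4 at least 1.5-fold lower, against 0.93% of all genes. The median was -0.40 and the sum 1522 against 2000 CPM. Msmo1, a sterol oxidase, had 87.6 and 141 CPM (log2 ratio -0.68, -0.76 to -0.60), and the ratio was -0.77 for Hsd17b7 and -0.66 for Insig1, which holds the sterol sensor in the endoplasmic reticulum. In control and localized cells the medians were 0.10 and -0.06. With RNA-rich cells of 25000 to 40000 UMIs the bulk median was -0.25, and Msmo1 and Insig1 both had -0.49. Msmo1 had 334 and 312 CPM in control and 178 and 205 CPM in localized cells.

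Of 22 genes of neural stem cell identity 11 were above and 11 below 0. Against 0.93% of all genes, 3 were at least 1.5-fold lower. These were Hes5, the Notch target that holds cells undifferentiated, with 15.6 and 35.7 CPM (-1.15, -1.33 to -0.97), and the helix-loop-helix inhibitors Id1 and Id2, with 59.0 and 91.6 CPM (-0.62) and 36.0 and 56.2 CPM (-0.63). At 25000 to 40000 UMIs Id1 and Id2 had -0.45 and -0.54. Hes5 had 82.6 and 97.4 CPM in control and 186 and 198 CPM in localized cells, above both bulk groups.

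Among genes of at least 20 CPM the lowest ratios were those of AY036118 (-2.17), Gm42418 (-2.03) and Lars2 (-1.81). Gm42418, which overlaps a ribosomal RNA repeat, made up 1444 CPM of RNA-rich and 5912 CPM of ordinary cells. With Hist1h2bb these were the 4 genes with fewer UMIs per RNA-rich than per ordinary cell, for Gm42418 54.1 against 72.5 UMIs. The same 3 were abundant in free RNA, Gm42418 at 200977 CPM, Lars2 at 8238 CPM and AY036118 at 2332 CPM, and their ratios were between -1.26 and -1.99 in the control and localized libraries. The part of free RNA in these values was not tested.

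Malat1, a long RNA kept in the nucleus, had 7141 CPM in RNA-rich and 11168 CPM in ordinary cells (-0.65). Mitochondrially encoded transcripts had a median ratio of -0.38 over 13 genes, all below 0. At least 1.5-fold lower were 4, against 0.93% of all genes. The rule had set a limit on the sum of mitochondrial transcripts. The cells above 40000 UMIs weighed most in these values. With RNA-rich cells of 25000 to 40000 UMIs Malat1 had a ratio of -0.28, the mitochondrial list a median of -0.13 and the histone list -0.62, and above 40000 UMIs they were -1.33, -0.78 and -1.52. Of the 7 measured genes kept in the nucleus, Malat1 among them, 5 were below 0 and 2 above, with a median of -0.16. Kcnq1ot1 had -0.16. Neat1, found in only 6.57% of RNA-rich and 3.81% of ordinary cells after thinning, had 0.78.

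Along the depth ranges the lists took different courses. From 10000 to 12500 up to above 40000 UMIs the interferon sum went from 951 to 3089 CPM, with 1414, 1394, 1882 and 2133 CPM in the 4 ranges from 15000 to 40000, and the integrated stress response sum from 1956 to 3022 CPM. G2 and mitosis genes had their highest sum, 10792 CPM, at 15000 to 20000 UMIs, below the RNA-rich limit, and 8358 CPM above 40000. Nuclear retained RNAs, mostly Malat1, stayed between 11373 and 11862 CPM up to 25000 UMIs and were at 4613 CPM above 40000. Ribosomal protein genes, 81 measured with a median ratio of 0.05, went from 229425 CPM in the first range down to 217988 CPM at 25000 to 30000 UMIs and were at 248693 CPM above 40000. With RNA-rich cells of 25000 to 40000 UMIs their median was -0.019. The range above 40000 UMIs held 166 cells and a median mitochondrial share of 3.04%, against 4.16% at 10000 to 12500.

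**Figure D5:**
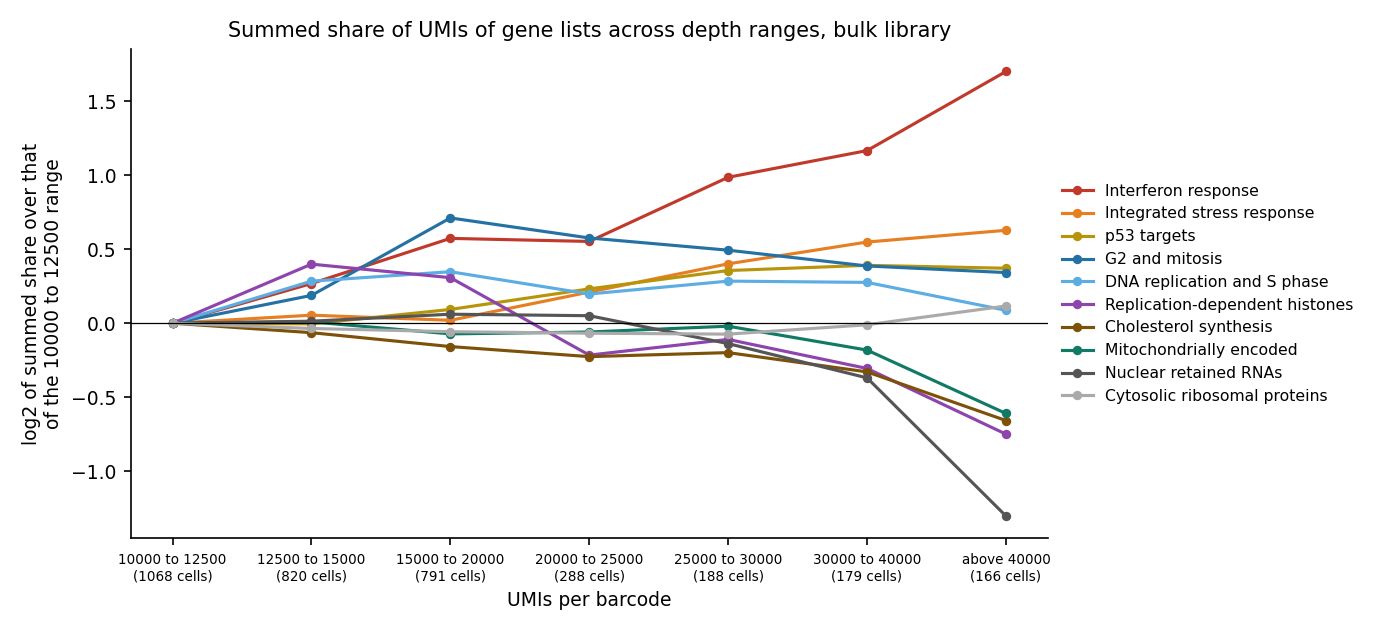
Summed share of UMIs of 10 gene lists in 7 depth ranges of the bulk library, as log2 of the sum over that of the 10000 to 12500 range (y axis), with the number of cells per range on the x axis. The interferon sum climbs from 951 to 3089 CPM, G2 and mitosis genes peak at 15000 to 20000 UMIs with 10792 CPM, and the nuclear retained RNAs drop to 4613 CPM in the 166 cells above 40000.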

How the data were processed

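The members, lists and rules below were chosen with earlier results of these data known. The deposited files hold UMI counts per gene and barcode, including empty barcodes. The matrices were written by Cell Ranger 4 per the file headers, while the submitters' processing notes name Cell Ranger 6, Seurat 4.0.4 and GRCm38. No release of the annotation is given in the sources used here.

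UMIs were summed over the cells of a group and given as CPM. Log2 ratios add 1 CPM to both groups, which lowers those of rare genes. A gene counted as higher or lower past 1.5-fold, at a minimum of 20 CPM in either group for counts of all genes and 5 CPM for lists. This rule is one of size only. Genes to name were picked from the 14 largest ratios in each direction at 50 CPM or more, leaving out Riken, numbered Gm, mitochondrial and ribosomal protein genes. They were also picked from up to 4 members of each list with the largest ratios (8 for the cycle and interferon lists). The text names only part of these genes and does not describe every list. Gm42418, Top2a, Mki67, Pcna, Ccnd1, Ccnd2 and list members with smaller ratios were named after their values were seen.

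Cells were thinned to 10000 UMIs without replacement, which kept all cells of both groups. Intervals are 95% exact Poisson or Clopper-Pearson for sums and shares, and from ranked values for medians. Scrublet ran in scanpy 1.11.5 with an expected rate of 0.06. No doublets were removed. Some genes are not reported here. Coordinates are from GENCODE on GRCm38. The calculation of ratios was run on simulated sums with known folds. These sums held counting error only, with no spread between cells, free RNA or doublets, so they check the arithmetic alone.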

Additional observations from a re-analysis of the deposited data

How the results depend on the processing

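No paired analysis was possible because each condition was 1 library. The ranges above 40000 and from 25000 to 30000 UMIs, and totals without mitochondrial, Gm42418, AY036118 and Lars2 UMIs, were added after seeing the data. Of 69 picked or later added genes past 1.5-fold, not all of them named above, 48 to 69 stayed past it under each alternative and 5 changed sign under any. The interferon median was 0.75 to 1.499 and that of G2 and mitosis genes 0.29 to 1.39 under all alternatives, and both stayed above 0. The 1.39 came from the low-cycle cells, which were chosen on those genes, so that setting is no check of the G2 and mitosis median. The causes of the changes below were not tested.

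With RNA-rich cells of 25000 to 40000 UMIs, 31 genes were at least 1.5-fold lower, and the medians were 0.13 for S phase and 0.91 for interferon genes. Above 40000 UMIs, 246 genes were higher and 157 lower, with medians of -0.038 (S phase), 0.31 (G2 and mitosis) and 1.498 (interferon). From 25000 to 30000 UMIs, 18 were lower, with 0.47 (G2 and mitosis) and 0.84 (interferon). With ordinary cells of 12000 to 15000 UMIs the medians were -0.064 (S phase) and 0.29 (G2 and mitosis), and the difference in S phase UMIs per cell was -2. Without the highest 10% of Scrublet scores the interferon median was 1.33. In the 70 and 283 cells with fewer than 3 oligodendrocyte lineage UMIs, 390 genes were higher, S phase was 0.13 and interferon 1.499, and the differences per cell were 215 genes and 20.5 G2 and mitosis UMIs; Klf10 (0.81) and Dusp6 (0.50) changed sign. In low-cycle cells 309 genes were higher and 120 lower, and Hist1h2ae (0.18), Hist1h3b (0.56) and Hist1h2ab (0.21) changed sign. The medians there, 0.63 (S phase) and 1.39 (G2 and mitosis), were shaped by the choice of cells on the same lists. With 10 CPM added, 65 genes were higher and the interferon median was 0.75. Averaging shares over cells gave 0.13 for S phase. A minimum of 50 CPM gave 59 higher and 30 lower genes, no minimum 459 and 183, and a 2-fold limit 21 and 17. Thinned to 5000 UMIs, the differences were 75.5 genes and 17 G2 and mitosis UMIs.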

Other observations

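Several other gene lists in RNA-rich and ordinary bulk cells lay close to the background of all genes. Ribosome biogenesis had a median log2 ratio of 0.06 over 31 genes, translation factors 0.01 over 23, nuclear-encoded oxidative phosphorylation 0.01 over 33 and membrane repair, the group of annexins and ESCRT genes that reseal the plasma membrane, 0.08 over 19, and none of these genes was past 1.5-fold. Within them Eef2, the elongation factor that moves the ribosome, had 780 and 546 CPM (0.51), and Anxa2, a membrane repair annexin, 162.4 and 116.8 CPM (0.47). Genes of the actin cytoskeleton and its factor SRF had a median of 0.05. At least 1.5-fold higher were 3 of 19, against 3.18% of all genes. The 3 included Lmna, the nuclear lamin A, at 172 and 95.1 CPM (0.85), and Tubb6 at 184 and 108 CPM (0.76). The last was Zyx, of focal adhesions, at 99.8 and 61.2 CPM (0.70, but 0.51 with RNA-rich cells of 25000 to 40000 UMIs). Cytosolic heat shock genes had a median of -0.08 and the unfolded protein response -0.11; Hspa8, the constitutive chaperone, had 831 and 1170 CPM (-0.49) and the co-chaperone Bag3 29.2 and 16.7 CPM (0.77).

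Clu, a secreted chaperone of astrocytes, had 33.5 and 14.8 CPM (1.12), while Aqp4, the astrocyte water channel, had 11.4 and 14.4 CPM (-0.31).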
